A study of Mus musculus with 18 samples.

Results

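The BCL2 family was followed through its best known members in crypts and enteroids of the mouse small intestine. The members were 10 genes picked by symbol: the effectors Bax, Bak1 and Bok, the BH3-only genes Bik, Bmf, Bbc3 and Bcl2l11, and the survival genes Bcl2, Bcl2l1 and Mcl1. All 10 were found in the table of each time point, among 18838 genes listed in at least 1 of the tables. The study asked how the small intestinal epithelium grows without MTGR1, a transcriptional corepressor of the MTG family that is encoded by Cbfa2t2. RNA was sequenced from 3 WT and 3 Mtgr1-/- mice aged 8 to 12 weeks, each sampled as freshly isolated duodenal crypts (day 0) and as enteroids, small epithelial organoids grown in Matrigel with EGF, Noggin and R-spondin, after 24 h (day 1) and 72 h (day 3). The deletion was present in every tissue of the Mtgr1-/- mice and no agent was given, so that each of the 6 groups held 3 libraries.

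BCL2 family proteins decide whether the outer membrane of the mitochondrion stays closed. Bax and Bak form pores in it that release cytochrome c and start the caspase cascade, survival proteins bind and block them, and BH3-only proteins answer stress by occupying the survival proteins or by activating the pore formers directly. In the intestine the family is known for setting how readily crypt cells die after radiation and how cells that lose contact with the matrix are removed.

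All members share the BH3 motif, a short helix through which pro-death and survival proteins hold each other. The coding bases of this motif are shown to let the members be compared at the one element that defines them. Each sequence below is 45 bases, read 5′ to 3′ on the coding strand from the longest coding transcript of the gene in GENCODE M21 (build GRCm38), and the capitals mark the codon of the conserved leucine and the codon pair that ends in the conserved aspartate.
Bax: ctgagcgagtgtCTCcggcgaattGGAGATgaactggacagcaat
Bak1: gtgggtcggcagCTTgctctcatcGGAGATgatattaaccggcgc
Bok: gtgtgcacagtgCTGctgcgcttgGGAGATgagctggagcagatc
Bik: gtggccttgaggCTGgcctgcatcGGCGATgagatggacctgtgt
Bmf: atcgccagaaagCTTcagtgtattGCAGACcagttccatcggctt
Bbc3: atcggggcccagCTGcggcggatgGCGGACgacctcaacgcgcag
Bcl2l11: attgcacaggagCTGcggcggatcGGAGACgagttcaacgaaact
Bcl2: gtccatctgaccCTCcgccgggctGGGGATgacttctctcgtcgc
Bcl2l1: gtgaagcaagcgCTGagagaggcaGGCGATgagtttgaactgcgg
Mcl1: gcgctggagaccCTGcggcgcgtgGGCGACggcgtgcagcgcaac
The stretches were found by searching for a leucine codon followed, at the spacing shown, by a glycine or alanine codon and an aspartate codon. The marked codons were thus limited to these by the search. In 8 members the codon before the aspartate was one for glycine, and in the BH3-only genes Bmf and Bbc3 it was one for alanine. Among the effectors, the stretch of Bax lay at chr7:45465991-45466035 (minus strand, exon 3), that of Bak1 at chr17:27022525-27022569 (minus strand, exon 4), and that of Bok was split by an intron, between exons 2 and 3 at chr1:93686645-93689176 (plus strand). Those of the BH3-only genes lay at chr15:83543072-83543116 (Bik, plus strand, exon 3), chr2:118545094-118545138 (Bmf, minus strand, exon 4), chr7:16313761-16313805 (Bbc3, plus strand, exon 3) and chr2:128147138-128147182 (Bcl2l11, plus strand, exon 3). Those of the survival genes lay at chr1:106712569-106712613 (Bcl2, minus strand, exon 1), chr2:152829691-152829735 (Bcl2l1, minus strand, exon 2) and chr3:95659424-95659468 (Mcl1, plus strand, exon 1). All are coding sequence, and the reads were counted over whole genes, so that no value here belongs to the motif itself.

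The deposited values were gene counts divided by 1 factor per library, called normalized counts here, and were scaled separately at each time point. In the 16 libraries whose reads could be recovered, depth was 22035316 to 28621990 reads on genes. The RNA of the targeted gene was not lower in the libraries labelled Mtgr1-/-: Cbfa2t2 stood at 466 to 697 normalized counts in their crypts against 523 to 614 in WT crypts, and at 789 to 1160.3 against 710.2 to 788 at day 1. Which part of the gene was deleted is not known here, so that these counts do not check the labels. Epithelial markers were high in every library, with 7 of 7 in the tables and summed normalized counts of 148823 to 386582. Libraries stood apart in both genotypes. In WT crypt library 3 the 15 immune markers summed to 25814, against 3352 and 6013 in the other WT crypts and 988 to 3487 in the Mtgr1-/- crypts. The gene Xist was also high in that library, at 10177 normalized counts against 2.87 and 6.93 in the other WT crypts. Among Mtgr1-/- crypts Xist was high in library 1, at 11038 against 5.71 and 4.07. In enteroids it was again high only in WT replicate 3 (10216 at day 1 and 13962 at day 3) and Mtgr1-/- replicate 1 (9047 and 14831). In Mtgr1-/- crypt library 2 the 6 Paneth markers summed to 39863, against 1243 and 969.6 in the other Mtgr1-/- crypts, and in enteroids replicate 2 differed from the other Mtgr1-/- libraries with a chi-square per degree of freedom of 57.4 to 75.0, against 26.6 and 19.1 between those. Without Mtgr1-/- replicate 2, 0, 7 and 7 members were called in crypts, at day 1 and at day 3, as with it. Lineage markers moved with genotype at every time point: the sum of 6 stem cell markers was 25542 to 102592 in WT and 1107 to 5784 in Mtgr1-/- libraries, that of 6 enteroendocrine markers 6856 to 11439 and 133 to 451, that of 5 goblet markers 28615 to 144295 and 1627 to 6413, and that of the Paneth markers 53880.2 to 160014 and 423 to 39863. At days 1 and 3, the 9 enterocyte markers summed to 184724 to 325739 in WT and 337950.1 to 673522 in Mtgr1-/- enteroids, and the 6 cycling markers to 41977 to 46987 and 18428 to 29165. In crypts the enterocyte sum went the other way, at 518655 to 678239 in WT and 283736 to 509567 in Mtgr1-/- libraries, and the cycling sums overlapped. The 5 tuft markers summed to 1165 to 1309 in WT and 1669 to 5470.2 in Mtgr1-/- crypts. For the 4 in the table of each enteroid day, sums were 478 to 662 and 312 to 469 at day 1, and 469 to 538 and 286 to 347 at day 3. The part of these shifts in the results below was not tested, and in such bulk samples fewer cells of a type and less RNA per cell cannot be told apart.

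Levels were first compared between members per length, as CPM (the count after scaling the table total of a library to 1000000) per kilobase of exon. Bak1 and Mcl1 led the family in all 6 groups. In WT crypts their levels were 89.3 ± 16.1 and 55.6 ± 5.19 CPM per kb (SD, n = 3), followed by Bax at 18.3 ± 1.35 and Bcl2l1 at 9.21 ± 0.145, with no overlap between neighbors in this order. The effector Bak1 and the survival gene Mcl1, whose proteins bind each other, were thus both far above Bcl2, at 1.39 ± 1.27. Bok, Bcl2l11, Bmf, Bcl2 and Bbc3 came next in WT crypts, and each overlapped its neighbor in the order. Bik was last in all 6 groups, at 0.113 ± 0.0498 in WT crypts. In the Mtgr1-/- enteroids of day 1, Bok reached 27.7 ± 5.89 CPM per kb and overlapped Bax at 29.4 ± 5.34, while in the WT enteroids of that day Bok stood at 14.8 ± 2.88 and Bax at 39.3 ± 3.01 without overlap. Bcl2 ranked 8th in WT and 9th in Mtgr1-/- libraries at each time point, and overlapped Bik in the Mtgr1-/- libraries. These levels use the full set of annotated exons, which for Bcl2 and Bcl2l11 spans 9157 and 8029 bases, and a shorter transcript in use would raise the level per kilobase. They also scale each library to its total, so that gaps between the genotypes carry the shift given below for total count scaling.

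**Figure D1:**
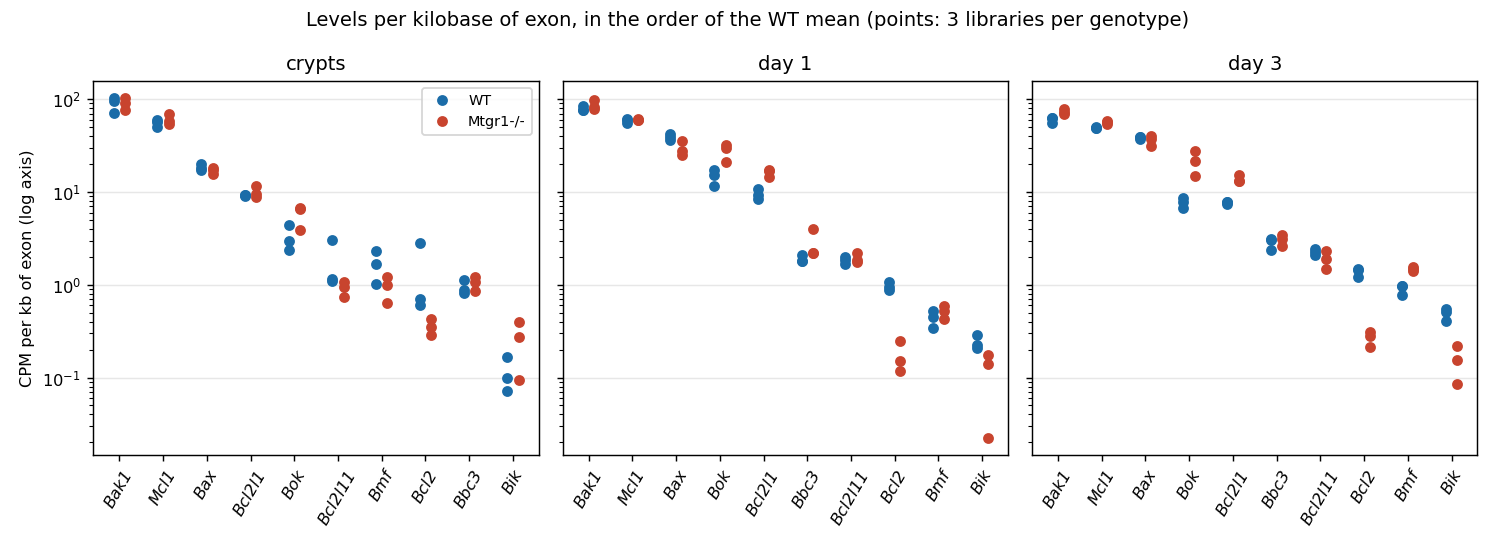
Level of each gene in CPM per kilobase of exon (log axis) at each time point, with genes in the order of their WT mean and 1 point per library (3 WT and 3 Mtgr1-/- libraries per time point). Bak1 and Mcl1 lead in every panel, and Bcl2 falls away from the WT points in the Mtgr1-/- enteroids.

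The genotypes were then compared at each time point on log2(normalized count + 1) with limma. In crypts, none of the 9 members tested passed an adjusted p of 0.05, where 4.73% of all tested genes did. At an unadjusted p under 0.05 there were 3 (Bok, Bmf and Bcl2). Of the count models, edgeR called 0 and DESeq2 called 2, both lower in Mtgr1-/- crypts. Of all genes tested in crypts, limma called 3.15% lower, edgeR called 1.61% in either direction, and DESeq2 called 9.25% (5.91% lower). Both count models ran without WT crypt library 2 and Mtgr1-/- day 3 library 2, whose reads were not recovered. At day 1, 7 of 9 members passed, against 58.9% of all tested genes, with 6 higher in Mtgr1-/- enteroids (Bak1, Bok, Bbc3, Bcl2l11, Bcl2l1 and Mcl1; 30.0% of all genes were higher) and 1 lower (Bcl2; 28.9%). At day 3, 7 of 10 passed, against 59.0%, with 5 higher (Bak1, Bok, Bmf, Bcl2l1 and Mcl1; 29.9%) and 2 lower (Bik and Bcl2; 29.1%). The genotypes did not overlap for 3 of 9 members in crypts, 8 of 9 at day 1 and 7 of 10 at day 3, beside 25.5%, 68.1% and 68.8% of all tested genes. So large a share of all genes differed in enteroids that the count of members called is no result about the family by itself. Bik was under the minimum mean of 10 in crypts and at day 1 and was tested only at day 3.

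Scaling mattered at day 1. With each library scaled to its total count, the median log2 difference of all genes moved by -0.32 at day 1 and -0.20 at day 3, and the split of all calls went from 3776 higher and 3637 lower to 2206 and 5588 at day 1 and from 3826 and 3719 to 2755 and 5081 at day 3. Under that scaling Bok and Bcl2l1 were still called higher and Bcl2 lower at both days, while at day 1 the calls of Bak1, Bbc3, Bcl2l11 and Mcl1 were lost and Bax was called lower. Leaving out single libraries at day 1 gave 3 members called without WT replicate 2, without Mtgr1-/- replicate 1 or without Mtgr1-/- replicate 3, 4 without WT replicate 1 or 3, and 7 without Mtgr1-/- replicate 2. Bok, Bcl2 and Bcl2l1 were among those called each time.

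**Figure D2:**
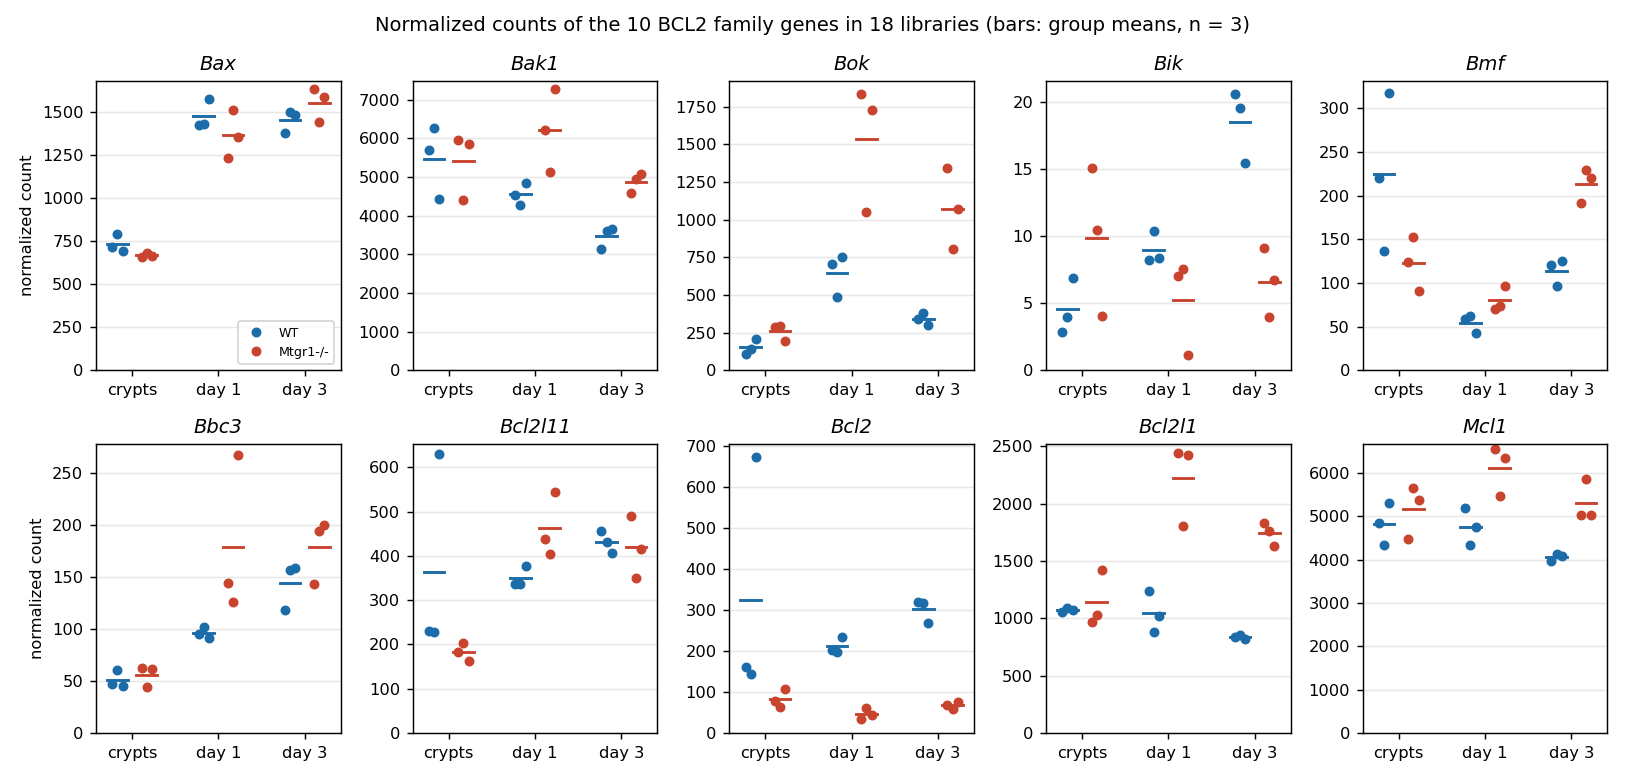
Normalized count of each of the 10 genes (vertical axes start at 0 and differ between panels) in crypts, day 1 and day 3 enteroids, with 1 point per library and a bar at the mean of 3 libraries. Bok and Bcl2l1 separate upward and Bcl2 downward in Mtgr1-/- enteroids, and 1 WT crypt library stands high for Bcl2 and Bcl2l11.

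Among the effectors, Bok showed the widest genotype difference. Bok resembles Bax and Bak in sequence, is found largely at the endoplasmic reticulum, and can open mitochondria without being restrained by survival proteins. In crypts it had 110.2, 139.6 and 209.5 normalized counts in WT and 290.1, 297 and 196 in Mtgr1-/- libraries, which overlapped (log2 difference 0.79, SE 0.28, adjusted p = 0.192). At day 1 the values were 708, 489 and 749 in WT and 1834, 1048 and 1725 in Mtgr1-/- enteroids. Every Mtgr1-/- library lay above every WT library, and the means differed 2.37-fold (log2 difference 1.22, SE 0.24, adjusted p = 0.00366). At day 3 WT enteroids held 339.7, 380.3 and 300.1 and Mtgr1-/- enteroids 1344, 807 and 1070.1, a 3.16-fold difference (log2 difference 1.63, SE 0.18, adjusted p = 0.000226). Both calls were kept under all 17 alternatives.

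Bak1, the pore former that sits in the mitochondrial membrane at rest, did not separate in crypts, with 5705, 6258 and 4427 normalized counts in WT and 5945, 4401 and 5864 in Mtgr1-/- libraries (log2 difference -0.01, 95% interval -0.42 to 0.39, adjusted p = 0.976). At day 1 it had 4534, 4266 and 4849 in WT and 6214, 5135 and 7275 in Mtgr1-/- enteroids. The Mtgr1-/- values lay above the WT values (log2 difference 0.44, SE 0.13, adjusted p = 0.0224), and the call was lost under total count scaling and quantile normalization, at 0.11 each, and without WT replicate 1 or 2 or Mtgr1-/- replicate 1 or 3 (adjusted p = 0.0568 to 0.0768). At day 3 the counts were 3146, 3600.0 and 3649 against 4589, 4948 and 5088, a 1.41-fold difference with no overlap (log2 difference 0.49, SE 0.09, adjusted p = 0.00188) that every alternative kept.

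Bax, which waits in the cytosol and moves to mitochondria when activated, was not called at any time point. Its counts were 714, 793 and 695 in WT and 660.2, 680.1 and 664 in Mtgr1-/- crypts, lower in all 3 Mtgr1-/- libraries by a small step (log2 difference -0.13, SE 0.09, adjusted p = 0.508). At day 1 they were 1423, 1429 and 1575 against 1231, 1512 and 1357, and at day 3 1379, 1501 and 1485 against 1633, 1446 and 1588. The groups overlapped at both days, with 95% intervals of the log2 difference of -0.35 to 0.12 at day 1 and -0.09 to 0.28 at day 3. Under total count scaling, Bax was called lower at day 1 (log2 difference -0.43, adjusted p = 0.0255, range 0.0255 to 0.764 over 17 alternatives) and its day 3 difference turned to -0.11.

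The 4 BH3-only genes did not move as 1 group. Bbc3 encodes PUMA, a target of p53 that mediates much of the death of crypt cells after DNA damage. It had 47.0, 60.4 and 44.9 normalized counts in WT and 62.2, 43.8 and 61.0 in Mtgr1-/- crypts, which overlapped (log2 difference 0.12, SE 0.27, adjusted p = 0.856). At day 1 it had 95.1, 102 and 91.4 in WT and 145, 126 and 267 in Mtgr1-/- enteroids. All 3 Mtgr1-/- libraries were higher, replicate 3 by the most (log2 difference 0.81, SE 0.28, adjusted p = 0.0361), and without that library the difference was 0.49 with an adjusted p of 0.0582. The call was also lost without Mtgr1-/- replicate 1 or any of the WT replicates (adjusted p = 0.0508 to 0.0921), without a trend (0.0504) and under total count scaling (0.147), in a range of 0.0115 to 0.147 over 17 alternatives. At day 3 the counts, 118, 157 and 159 against 143, 194 and 199.9, overlapped (log2 difference 0.30, SE 0.19, adjusted p = 0.197).

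Bcl2l11 encodes BIM, which binds all survival proteins and is induced when growth factors are withdrawn. In crypts it had 231, 228 and 629.7 normalized counts in WT and 184, 204 and 162 in Mtgr1-/- libraries. The Mtgr1-/- values were below all WT values but the test did not pass (log2 difference -0.82, SE 0.39, adjusted p = 0.334). Without WT crypt library 3, which also stood apart in immune markers and Xist, the difference was -0.33. At day 1 it had 337, 337 and 378 in WT and 437, 404 and 545 in Mtgr1-/- enteroids, higher in each of the latter (log2 difference 0.39, SE 0.14, adjusted p = 0.0438). This was the least stable of the day 1 calls, lost under 11 of 17 alternatives with adjusted p-values of 0.0189 to 0.700, among them leaving out Mtgr1-/- replicate 1 or 3 or any of the WT replicates (0.0604 to 0.120). At day 3 the values of 455, 430.2 and 407 in WT and 490.4, 351 and 415 in Mtgr1-/- enteroids were intermixed (log2 difference -0.05, 95% interval -0.37 to 0.26, adjusted p = 0.759).

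Bmf encodes a BH3-only protein held at the actin cytoskeleton and released when cells detach from the matrix. In crypts it had 220.4, 137 and 318 normalized counts in WT and 124, 152 and 90.5 in Mtgr1-/- libraries, which overlapped (log2 difference -0.82, SE 0.34, adjusted p = 0.262). Without WT crypt library 3 this was -0.53, while DESeq2 on recovered reads called it lower at -1.15 (adjusted p = 0.0248, range 0.0248 to 0.488 over 17 alternatives). DESeq2 ran without WT crypt library 2, and limma without that library gave -1.14 (adjusted p = 0.147). At day 1 the order was the opposite, with 58.5, 62.5 and 42.7 in WT and 70.0, 74.0 and 97.1 in Mtgr1-/- enteroids. The groups did not overlap, but the difference did not pass (log2 difference 0.55, SE 0.24, adjusted p = 0.0801), except with quantile normalization (0.82, adjusted p = 0.0221). At day 3 it had 120.1, 97.1 and 125 in WT and 191, 229.7 and 220.1 in Mtgr1-/- enteroids, a 1.87-fold difference (log2 difference 0.90, SE 0.16, adjusted p = 0.00175) that all 17 alternatives kept.

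Bik, a BH3-only gene whose protein sits at the endoplasmic reticulum, was close to the limit of detection. It had 2.87, 3.96 and 6.91 normalized counts in WT and 15.1, 10.5 and 4.07 in Mtgr1-/- crypts, and 8.23, 10.4 and 8.38 against 7.0, 7.59 and 1.10 at day 1. At these depths such values rest on about as many reads as they name. At day 3 Bik had 20.6, 19.6 and 15.5 in WT and 9.10, 3.98 and 6.74 in Mtgr1-/- enteroids. The Mtgr1-/- values were all lower (log2 difference -1.41, SE 0.40, adjusted p = 0.0160), and the call was lost without WT replicate 1 (adjusted p = 0.0601), without WT replicate 2 (0.0567) and with DESeq2 on recovered reads (0.121), within a range of 0.00707 to 0.121 over 17 alternatives.

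The survival genes went in opposite directions in Mtgr1-/- enteroids. Bcl2, the founding survival gene of the family, which is strong in lymphocytes, was the only survival gene that fell. At day 1 it had 202, 198 and 233 normalized counts in WT and 33.8, 61.6 and 43.0 in Mtgr1-/- enteroids. The lowest WT library was thus far above the highest Mtgr1-/- library, and the Mtgr1-/- mean was 0.219 of the WT mean (log2 difference -2.21, SE 0.24, adjusted p = 0.000352). At day 3 the counts were 318, 318 and 268 in WT and 67.1, 57.7 and 76.4 in Mtgr1-/- enteroids, 0.222 of the WT mean (log2 difference -2.16, SE 0.16, adjusted p = 3.38e-05). Both calls were kept under all 17 alternatives, with log2 differences of -2.52 to -1.97 and -2.36 to -2.05. Immune markers in these enteroids were low in both genotypes, with sums of 46.6 to 494 in WT and 44.4 to 1007 in Mtgr1-/- libraries, the highest of them in the latter. Other marker sums were lower beside Bcl2: at day 1 that of the 4 of 8 stroma markers in the table was 162 to 252 in WT and 10.5 to 54.0 in Mtgr1-/- enteroids (151 to 182 and 5.69 to 125 at day 3), and that of the 3 of 4 neural markers 37.7 to 41.2 and 7.59 to 19.8 (44.5 to 57.4 and 9.94 to 20.5). The stroma markers Col1a2, Col3a1, Dcn and Des and the neural marker Sox10 were not listed in enteroids, so that these sums do not show such cells to be present. The stem, enteroendocrine, goblet and Paneth sums given above were lower too, and the part of the makeup of the samples in the Bcl2 difference was not tested.

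In crypts the Bcl2 values were 160.0, 143 and 673 in WT and 78.2, 62.8 and 107 in Mtgr1-/- libraries. Here too the groups did not overlap, but WT crypt library 3, the one with the high immune sum, lay far above the rest, and the difference did not pass (log2 difference -1.61, SE 0.59, adjusted p = 0.203). Without that library it was -0.90 (adjusted p = 0.147), and DESeq2 on recovered reads called it at -2.35 (adjusted p = 0.00436, range 0.00436 to 0.366 over 17 alternatives). DESeq2 ran without WT crypt library 2, and limma without library 2 gave -2.01 (adjusted p = 0.198). With Xist, which was high in WT crypt library 3, as a covariate, limma gave -1.62 (adjusted p = 0.136). The part of immune cells in the crypt values was not tested.

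Bcl2l1 encodes BCL-XL, the survival protein on which many epithelial cells depend, and a short splice form of the same gene promotes death, which gene counts do not separate. Its crypt values were 1057, 1093 and 1074 normalized counts in WT and 964, 1028 and 1423 in Mtgr1-/- libraries, which overlapped (log2 difference 0.06, 95% interval -0.30 to 0.42, adjusted p = 0.877). At day 1 it had 1238, 877 and 1017 in WT and 2441, 1803 and 2419.8 in Mtgr1-/- enteroids. At day 3 the counts were 839, 856 and 818 in WT and 1829.5, 1758 and 1630.3 in Mtgr1-/- enteroids. The groups were apart at both days, by 2.13-fold at day 1 (log2 difference 1.09, SE 0.16, adjusted p = 0.00113) and 2.08-fold at day 3 (log2 difference 1.05, SE 0.08, adjusted p = 3.49e-05), and all 17 alternatives kept both calls.

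Mcl1, a survival gene with a short-lived protein that guards many cell types, differed less. It had 4847, 4347 and 5310.1 normalized counts in WT and 4467, 5660.5 and 5385 in Mtgr1-/- crypts, which overlapped (log2 difference 0.09, SE 0.12, adjusted p = 0.744). At day 1 it had 5191, 4341 and 4765 in WT and 6550.3, 5472 and 6357 in Mtgr1-/- enteroids, above WT in each (log2 difference 0.36, SE 0.11, adjusted p = 0.0195). Total count scaling brought this to 0.04 and quantile normalization to 0.05, both without a call, and the call was also lost without WT replicate 2 or 3 or Mtgr1-/- replicate 1 or 3 (adjusted p = 0.0563 to 0.0741). By day 3 WT enteroids held 3979, 4139 and 4089 and Mtgr1-/- enteroids 5036, 5866 and 5043, a 1.31-fold difference (log2 difference 0.38, SE 0.08, adjusted p = 0.00532), of which quantile normalization left 0.17 (adjusted p = 0.0577, range 5.18e-05 to 0.0577 over 17 alternatives).

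**Figure D3:**
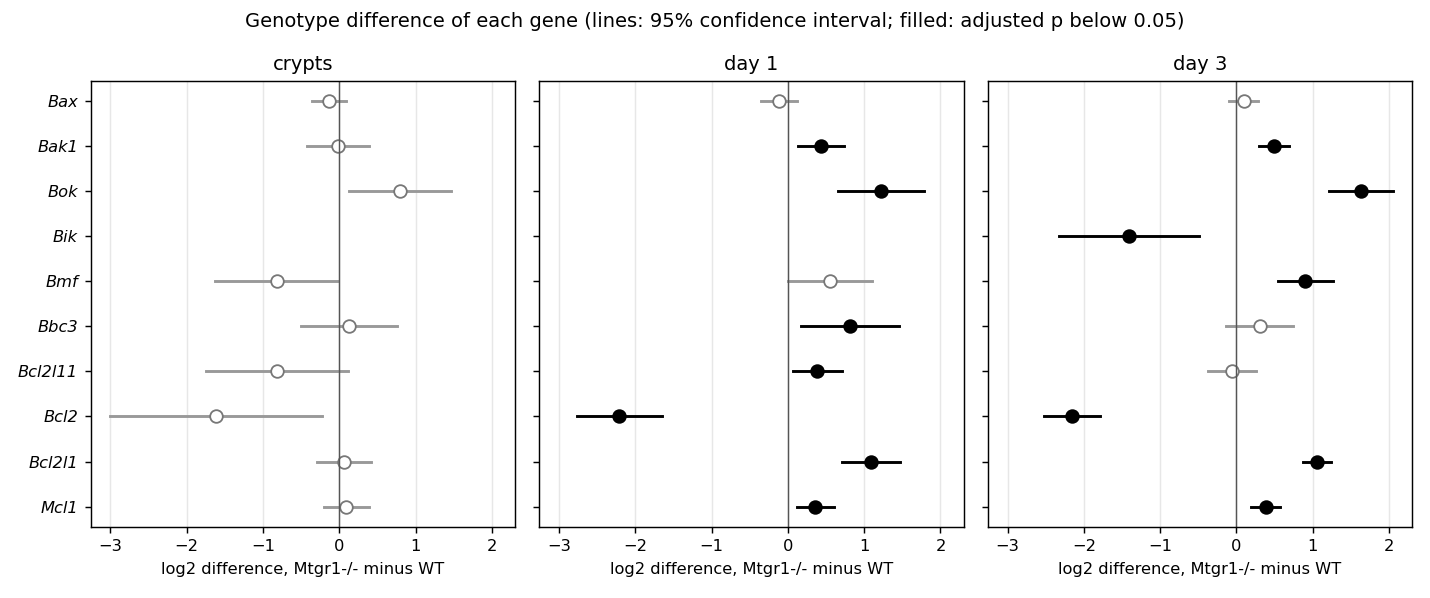
Log2 difference of each gene (Mtgr1-/- minus WT, 3 libraries each) with its 95% confidence interval in crypts, day 1 and day 3 enteroids, where filled points have an adjusted p below 0.05 and Bik has no point where it was not tested. No point is filled in crypts, and in enteroids Bcl2 lies near -2.2 on the log2 scale while Bok and Bcl2l1 lie above 1.

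A ratio of both survival genes within a library does not depend on how the library was scaled. The ratio of Bcl2l1 to Bcl2 normalized counts was 6.60, 7.67 and 1.59 in WT and 12.3, 16.4 and 13.3 in Mtgr1-/- crypts. It was 6.13, 4.43 and 4.36 in WT and 72.2, 29.2 and 56.3 in Mtgr1-/- enteroids at day 1, and 2.64, 2.69 and 3.05 against 27.3, 30.5 and 21.4 at day 3. Every Mtgr1-/- library was thus above every WT library of its time point. At days 1 and 3 this follows from the values of both genes, which did not overlap and lay in opposite directions. The ratio went down from day 1 to day 3 in all 3 WT mice, and in 2 of 3 Mtgr1-/- mice. It compares counts and not levels per length, and was not given a test of its own.

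**Figure D4:**
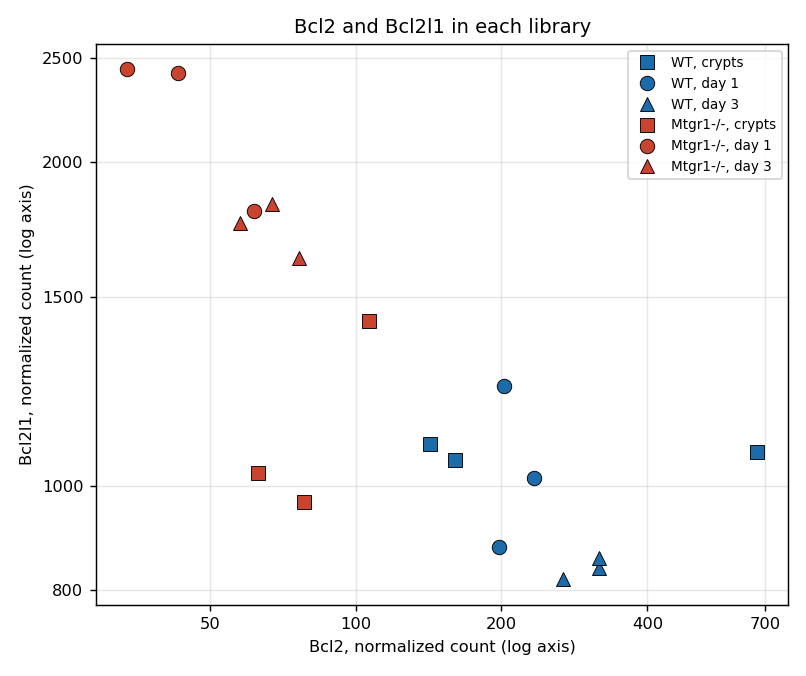
Normalized count of Bcl2l1 against that of Bcl2 in each of the 18 libraries (both axes logarithmic; color, genotype; shape, time point). The Mtgr1-/- enteroids lie at 33.8 to 76.4 for Bcl2 and 1630.3 to 2441 for Bcl2l1, apart from all WT libraries, while crypts of the genotypes overlap along Bcl2l1.

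The sequences just before the start sites of the 3 genes with the most stable differences are given because the members moved in both directions and MTG proteins act at DNA through factors such as E proteins and TCF4. Each is the 250 bases upstream of the RefSeq start nearest to the GENCODE M21 start of the gene (GRCm38.p6). It reads 5′ to 3′ on the strand of the gene, with any E-box (CANNTG) in capitals.
Bok: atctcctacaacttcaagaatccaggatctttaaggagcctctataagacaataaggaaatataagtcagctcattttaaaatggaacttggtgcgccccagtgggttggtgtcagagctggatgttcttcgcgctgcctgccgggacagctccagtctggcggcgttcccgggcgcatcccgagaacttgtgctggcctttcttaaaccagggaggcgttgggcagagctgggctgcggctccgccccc
Bcl2l1: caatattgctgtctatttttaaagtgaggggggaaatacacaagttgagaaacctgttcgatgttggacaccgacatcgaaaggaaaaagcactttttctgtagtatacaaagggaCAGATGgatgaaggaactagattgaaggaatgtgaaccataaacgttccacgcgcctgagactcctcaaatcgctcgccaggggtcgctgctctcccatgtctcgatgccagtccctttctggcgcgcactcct
Bcl2: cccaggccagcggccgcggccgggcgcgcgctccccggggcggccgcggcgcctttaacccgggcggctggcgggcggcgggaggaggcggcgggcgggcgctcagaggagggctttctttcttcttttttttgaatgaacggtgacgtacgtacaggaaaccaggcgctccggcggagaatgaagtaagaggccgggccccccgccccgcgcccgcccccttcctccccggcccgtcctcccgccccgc
They lie at chr1:93685325-93685574 (Bok, plus strand), chr2:152831729-152831978 (Bcl2l1, minus strand) and chr1:106714291-106714540 (Bcl2, minus strand). The E-box, which reads the same on both strands, was matched once before Bcl2l1 and not before Bok or Bcl2, and 66.2% of the 32851 windows of the same length before RefSeq starts held at least 1. The form bound by E proteins (CAGGTG or CACCTG, which is included in the E-box) and the TCF core (CTTTGA or TCAAAG) were matched in none of the 3 windows, and in 17.2% and 13.8% of all windows. A match or its lack in so short a window says nothing about binding.

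Levels also changed with culture, given here as CPM of the table total in each mouse, with no test. CPM scales to the total count, which moved the median log2 genotype difference of all genes by -0.32 at day 1 and -0.20 at day 3. Gaps between the genotypes carry this shift. For Bax, the change of the genotype difference from crypts to day 1 was 0.02 in normalized counts and -0.33 under total count scaling, and was called in neither. Bax went up from crypts to day 1 in all 6 mice, from a mean of 28.9 to 62.0 CPM in WT and from 26.9 to 46.3 in Mtgr1-/- mice. Bok went in the mean from 6.0 to 27.1 CPM in WT and from 10.6 to 51.0 in Mtgr1-/- mice, up in all 6, and then went down to 14.2 and 39.4 by day 3, down in all 6. Bbc3 went from 2.00 to 4.04 and 6.03 CPM in WT, up in all 3 mice at each step, and from 2.23 to 5.95 and 6.48 in Mtgr1-/- mice. These are the pro-death members that were higher in culture than in crypts in every mouse of both genotypes. Bmf went the other way at first, from 8.83 to 2.29 CPM in WT and from 4.97 to 2.70 in Mtgr1-/- mice at day 1, down in all 6. It then went up in all 6, to 4.76 and 7.74 by day 3. This was still below the crypts in 3 of 3 WT mice and above them in 3 of 3 Mtgr1-/- mice. Bak1 went down from day 1 to day 3 in all 6 mice, from 191 to 145 CPM in WT and from 207 to 177 in Mtgr1-/- mice.

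The survival genes took different courses in the genotypes. Bcl2l1 went from 45.3 CPM in Mtgr1-/- crypts to 74.2 at day 1 and 63.3 at day 3, above the crypts in 3 of 3 mice each time, while in WT mice it went from 42.3 to 43.6 and 35.0 and was below the crypts in 3 of 3 mice at day 3. Bcl2 went from 3.28 CPM in Mtgr1-/- crypts to 1.58 at day 1 and 2.45 at day 3, below the crypts in 3 of 3 mice, and in WT mice from 12.7 to 8.86 and 12.6, above the crypts in 2 of 3 mice and below them in the mouse of crypt library 3. Mcl1 stayed between 169.8 and 208 CPM in the means of all 6 groups. The makeup of the sample and the level per cell cannot be told apart in these changes.

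Whether the genotype difference itself changed was tested on all 18 libraries. From crypts to day 1 it changed for 3 of 9 members, against 41.4% of all tested genes, and from crypts to day 3 for 2 of 9, against 31.6%. Both use the same crypt libraries. For Bcl2l1 the log2 difference grew by 1.03 (SE 0.21, adjusted p = 0.00253) from crypts to day 1 and by 0.99 (SE 0.21, adjusted p = 0.00452) from crypts to day 3, and all 12 alternatives kept both. For Bmf it moved by 1.38 (SE 0.38, adjusted p = 0.0104) and 1.73 (SE 0.38, adjusted p = 0.00553), from a lower mean in Mtgr1-/- crypts to a higher mean in Mtgr1-/- enteroids. Of these differences at single time points, only that of day 3 was called. Without WT replicate 3 these were 0.92 (adjusted p = 0.0667) and 1.51 (adjusted p = 0.0170), and without Mtgr1-/- replicate 3 the first was 1.03 (adjusted p = 0.0837). Bcl2l11 moved by 1.20 (SE 0.40, adjusted p = 0.0247) from crypts to day 1, and by 1.24 (0.0711) without Mtgr1-/- replicate 1, 0.99 (0.140) without Mtgr1-/- replicate 3, 0.85 (0.0974) under total count scaling and 0.77 (0.0282) without WT replicate 3, adjusted p-values in parentheses.

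For Bcl2 the change from crypts was not called, at -0.59 (95% interval -1.86 to 0.67) to day 1 and -0.54 (95% interval -1.81 to 0.72) to day 3. Without WT replicate 3, whose crypt library stood apart, it was called at -1.24 (adjusted p = 0.0279, range 0.0279 to 0.809 over 12 alternatives) and -1.34 (adjusted p = 0.0283, range 0.0283 to 0.929). Bok moved by 0.43 (95% interval -0.38 to 1.24) and 0.84 (95% interval 0.03 to 1.65), and neither passed after adjustment, but without Mtgr1-/- replicate 2 the change to day 3 was 1.13 (adjusted p = 0.0351). Bak1 was likewise called without WT replicate 3, at 0.64 and 0.69 (adjusted p = 0.0406 and 0.0445), and Mcl1 to day 1 without Mtgr1-/- replicate 2, at 0.42 (adjusted p = 0.0241). From day 1 to day 3 limma called 0 of 9 members, 0 also at an unadjusted p under 0.05, beside 0.0329% of all tested genes. The intervals for this step ran from -0.48 to 0.41 for Bcl2l1 and from -1.22 to 1.32 for Bcl2.

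**Figure D5:**
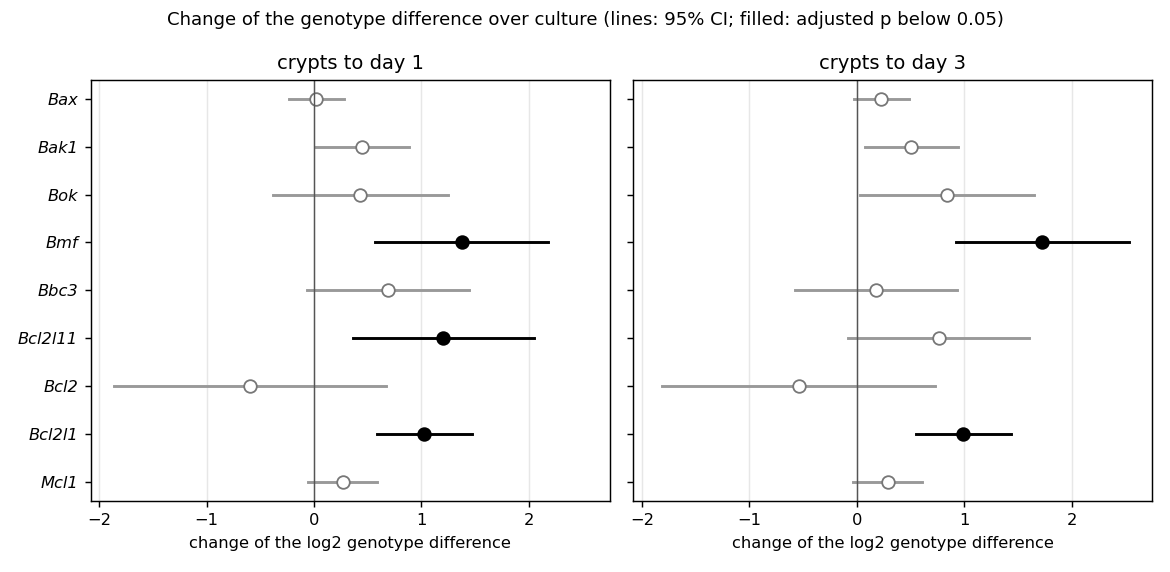
Change of the log2 genotype difference from crypts to day 1 and from crypts to day 3 for the 9 genes tested, with 95% confidence intervals from the fit to all 18 libraries (filled points, adjusted p below 0.05). Bcl2l1 and Bmf are filled in both panels and Bcl2l11 in the left panel only.

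The rest of the pathway was followed in 4 further lists, whose counts stand beside 58.9% (30.0% higher, 28.9% lower) of all tested genes called at day 1 and 59.0% (29.9% and 29.1%) at day 3. Of 11 tested relatives of the family, 8 rose and 0 fell in Mtgr1-/- enteroids at day 1 (median log2 difference 0.68, against -0.01 over all tested genes), and 7 rose and 1 fell at day 3 (0.48, against 0.00264), where total count scaling gave 5 higher and 1 lower at each day. Bcl2l15, a family member expressed in gut epithelium, went from 779 ± 154 to 3017 ± 598 normalized counts at day 1 (SD, n = 3 each; log2 difference 1.95, SE 0.18, adjusted p = 0.000205) and rose at day 3 as well (1.69, SE 0.22, adjusted p = 0.000412). Bnip3 and Bnip3l, mitophagy receptors that respond to low oxygen, rose at day 1 by 1.97 (SE 0.32) and 0.82 (SE 0.13) on the log2 scale, and at day 3 had differences of 0.58 and 0.21 that did not pass. The BH3-only genes Pmaip1 (NOXA, the partner of Mcl1) and Bad rose at both days, Pmaip1 by 0.80 and 0.60 and Bad by 0.68 and 0.74. Bcl2a1d also rose, by 1.68 and 2.34, but from means of only 7.53 and 3.40 in WT, and it shares near-identical sequence with its Bcl2a1 paralogs, so that its counts are uncertain.

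Of 18 genes of the machinery downstream of the mitochondrion, 9 rose and 2 fell at both days (median log2 difference 0.26 at day 1 and 0.25 at day 3), while total count scaling gave 6 each way with a median of -0.06 at day 1 and 5 each way at day 3. These 11 of 18 were near the share of all genes, so that the count is no result about the machinery. Casp9, the initiator that is activated by cytochrome c, rose by 0.69 and 0.40. Xiap, an inhibitor of caspases, rose too, by 0.86 and 0.65. Birc5 (survivin), which also serves in cell division, fell by 1.00 and 0.88, and Htra2, a mitochondrial protease that antagonizes caspase inhibitors, fell by 0.72 and 0.56. The sum of cycling markers, lower in Mtgr1-/- enteroids as given above, moved with Birc5, which is itself among these markers, and its part was not tested.

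Of 23 tested regulators of family members, 6 rose and 5 fell at day 1 (median log2 difference 0.08), and 6 rose and 3 fell at day 3 (0.10), 11 and 9 of 23 against 58.9% and 59.0% of all genes, whereas total count scaling gave 4 higher and 12 lower, and 6 each way. Trp53, which encodes p53, fell by 0.92 (SE 0.12) and 0.68 (SE 0.13) on the log2 scale, and E2f1, a cell cycle activator that can induce BH3-only genes, by 1.25 and 1.17. Stat3, an activator of Bcl2l1 and Mcl1, rose by 0.89 (SE 0.10) and 1.06 (SE 0.09), Foxo3, an activator of Bcl2l11 and Bbc3, by 1.00 and 0.67, and Ddit3 (CHOP), a stress factor, by 1.12 and 0.94. Egr1, an immediate early gene, had 0.52 (adjusted p = 0.131) at day 1 and rose by 1.25 at day 3. Of 24 further p53 targets, 12 rose and 4 fell at day 1 (median log2 difference 0.41) and 16 rose and 3 fell at day 3 (0.58), 16 and 19 of 24 against the same 58.9% and 59.0%, with 5 each way and 13 against 3 under total count scaling. This list shares genes with the relatives (Pmaip1), the machinery and the regulators. The shared genes rose at both days, so that these counts are not separate from those above. Cdkn1a, the cell cycle inhibitor p21, rose by 1.15 at both days and the death receptor gene Fas by 1.59 and 1.32, while Plk2 fell by 0.96 at day 1 and rose by 0.75 at day 3. Phlda3, an inhibitor of AKT, had 0.35 (adjusted p = 0.307) at day 1 and rose by 1.44 at day 3, Trp53inp1 rose by 0.89 and 0.96, and Sesn1, a brake on mTORC1, rose by 0.95 and 0.58. In crypts, the limma fit called 0 of 12 relatives, 0 of 18 machinery genes, 0 of 23 regulators and 0 of 22 further p53 targets tested, with 4, 4, 1 and 3 at an unadjusted p under 0.05, respectively. The edgeR fit called 0 in each list there, and DESeq2 called 2 relatives, 1 machinery gene, 1 regulator and 0 further p53 targets, while with Xist as a covariate limma called 2 relatives. Of the regulators, 7 were called at day 1 without WT replicate 1 and 7 without Mtgr1-/- replicate 1.

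The genes closest in pattern to each member were taken as those with the highest Pearson r of log2(CPM + 0.1) over the 18 libraries, among 12145 genes, and describe libraries that share genotype, culture time and depth. For Bcl2 they were Adgrl1, Rogdi and Evl (r = 0.966, 0.966 and 0.958), and for Bcl2l1 they were A930011G23Rik, Hsd17b11 and Dlgap1 (r = 0.960, 0.948 and 0.943). For Bok they were Il1rn, Rin1 and Rap2b (r = 0.974, 0.970 and 0.962), and for Bax Abcc1, Lrp8 and Dennd2c (r = 0.977, 0.974 and 0.970). Bbc3 was closest to Slc25a1, Tm7sf2 and Slc12a9 (r = 0.960, 0.945 and 0.936), Bcl2l11 to Tmem117, Gabbr1 and Bhlhe40 (r = 0.924, 0.904 and 0.877), and Bmf to Rab43, Erbb2 and Calcoco1 (r = 0.906, 0.891 and 0.861). Bak1 was closest to Igtp, Slc30a6 and Mcu (r = 0.900, 0.897 and 0.897) and Mcl1 to Myo1e, Lhfpl2 and S100a10 (r = 0.895, 0.826 and 0.818). No member was among the 3 closest genes of another member. Bcl2 and Bcl2l1 had the most negative r of any 2 members, at -0.82 over the 18 libraries.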

How the data were processed

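RNA of 18 libraries was made into stranded mRNA libraries and sequenced as single reads by the authors, who trimmed reads with fastp 0.20.0, quantified transcripts of GENCODE M21 with Salmon 1.3.0 and summarized them per gene. The deposited signal is the gene count divided by 1 size factor per library, as DESeq2 1.26.0 gives it, within the table of each time point. Deposited columns with the authors' own DESeq2 fold changes, statistics and p-values were not used.

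Groups came from the labels. The test was limma 3.58.1 (with a trend, R 4.3.3) on log2(normalized count + 1), over genes whose mean reached 10, 3 against 3, two-sided, with Benjamini-Hochberg adjustment over all genes of a time point and a threshold of 0.05. Such log2 differences understate changes of low genes. Changes of the difference were fitted over 18 libraries with mouse as a random effect, equal replicate numbers within a genotype being treated as 1 mouse. Whole reads (within 0.001) were recovered in 16 libraries and tested with edgeR 4.0.16 and DESeq2 1.42.0. The step of WT crypt library 2 and Mtgr1-/- day 3 library 2 was too near 1, so that both count models left these libraries out. The steps were tested on simulated data. Replicates differed by more than sampling noise.

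The members and lists were chosen with earlier results of these data known. The text names all members, up to 6 genes per further list with the largest differences past the threshold at day 1 or 3, apart from a few that are not reported here, and the 3 genes closest in pattern to each member. Alternatives were pseudocounts of 0.1 and 8, no filter, other scalings, no trend, a replicate block, single libraries left out and both count models. Xist as a covariate (WT mouse 3 and Mtgr1-/- mouse 1 stood apart in it) and, for the further lists, alternatives other than the pseudocount of 8, TMM and the block were added after seeing the data.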

Additional observations from a re-analysis of the deposited data

Results flagged for a closer look

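The genotype difference changed between crypts and enteroids for 3 members, by the test of the change itself in the fit to all 18 libraries. These were 3 of 9 members to day 1 and 2 of 9 to day 3, beside 41.4% and 31.6% of all tested genes. The count is thus no result about the family. From crypts to day 1 the log2 difference moved by 1.38 for Bmf (adjusted p = 0.0104), by 1.20 for Bcl2l11 (adjusted p = 0.0247) and by 1.03 for Bcl2l1 (adjusted p = 0.00253, limma). From crypts to day 3 it moved by 1.73 for Bmf (adjusted p = 0.00553) and by 0.99 for Bcl2l1 (adjusted p = 0.00452). The change of Bcl2l11 did not pass under total count scaling (0.85, adjusted p = 0.0974) or without Mtgr1-/- replicate 1 or 3, and that of Bmf to day 1 did not without WT or Mtgr1-/- replicate 3. Both steps share the crypt libraries. In crypts Bmf and Bcl2l11 were highest in WT library 3. It had the highest immune marker sum and came from the only WT mouse with high Xist, which was high at every time point. The part of either in these changes was not tested.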

How the results depend on the processing

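The number of members called was 0 in crypts, 7 at day 1 and 7 at day 3. It came to 2 in crypts with DESeq2 on recovered reads and to 4 at day 1 under total count scaling, and to 3 to 7 at day 1 with 1 library left out. For the change of the genotype difference it was 1 to 4 from crypts to day 1 and 2 to 4 from crypts to day 3 with 1 library left out. Under the other alternatives these counts and those at day 3 and from day 1 to day 3 stayed within 1.5 times the main count. Same-numbered libraries of the genotypes were alike to a different degree at each time point. The correlation of their deviations was 0.08, 0.27 and 0.35 in crypts, 0.12, 0.23 and 0.22 for day 1 enteroids and -0.01, -0.00226 and -0.02 for day 3 enteroids. For libraries of unlike number it was -0.30 to 0.20, -0.19 to -0.02 and -0.10 to 0.10. Under the replicate block 0, 7 and 7 members were called at the time points and 3, 2 and 0 for the changes, and each member kept its call. Of the further lists, the crypt counts of 0 came to 1 relative under total count scaling, 1 with quantile normalization, 2 with Xist as a covariate, 0 to 1 with 1 library left out, and 2 relatives, 1 machinery gene and 1 regulator with DESeq2. At day 1 the 11 regulators came to 7 to 12 with 1 library left out, and the 16 further p53 targets to 10 under total count scaling.

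Members that turned their direction were all uncalled. In crypts the log2 difference of Bak1 was 0.016 under total count scaling, 0.081 with edgeR and 0.083 with DESeq2, and -0.16 to 0.13 with 1 library left out, and that of Bcl2l1 was -0.11 to 0.17 with 1 library left out. At day 3 Bax was -0.11 under total count scaling, and Bcl2l11 was 0.014 with quantile normalization, 0.064 with edgeR, 0.071 with DESeq2 and -0.17 to 0.069 with 1 library left out. For the change from crypts to day 1, total count scaling gave -0.33 for Bax and -0.083 for Mcl1, and Bax was -0.060 to 0.11 with 1 library left out. For the change from crypts to day 3, total count scaling gave -0.0018 for Bax and -0.051 for Bbc3, and Bbc3 was -0.048 to 0.42 with 1 library left out. Both count models ran without WT crypt library 2 and Mtgr1-/- day 3 library 2. Without WT replicate 2, limma gave 0.091 for Bak1 in crypts. The cause of these turns was not tested.

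Over all genes, 614 were called in crypts, 209 with edgeR, 1200 with DESeq2 and 175 to 605 with 1 library left out. For the changes, 5025, 3834 and 4 genes were called, and 3333 to 5549, 1657 to 3712 and 0 to 879 with 1 library left out; total count scaling moved the split of higher and lower from 2468 and 2557 to 1192 and 4422, and from 2000 and 1834 to 1279 and 2833. From day 1 to day 3, 16 genes were called with a pseudocount of 8, 22 under total count scaling and 35 with the block. Depth limits Bik, whose values in 14 of 18 libraries were under 15 normalized counts.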

Other observations

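Ratios of other member pairs within a library, which do not depend on scaling, were also set side by side, with no test. The ratio of Bak1 to Bax normalized counts was 6.37 to 7.99 in WT and 6.47 to 9.0 in Mtgr1-/- crypts, 2.99 to 3.19 and 3.40 to 5.36 at day 1, and 2.28 to 2.46 and 2.81 to 3.42 at day 3. The ratio of Bak1 to Bax was thus lower in culture than in crypts in every mouse, and the genotypes did not overlap in enteroids. The ratio of Bok to Bax was 0.154 to 0.301 in WT and 0.296 to 0.439 in Mtgr1-/- crypts, 0.343 to 0.497 and 0.693 to 1.49 at day 1, and 0.202 to 0.253 and 0.558 to 0.823 at day 3. The ratio of Bcl2l1 to Mcl1 was 0.202 to 0.251 and 0.182 to 0.264 in crypts, 0.202 to 0.239 and 0.329 to 0.381 at day 1, and 0.20 to 0.211 and 0.300 to 0.363 at day 3, WT first.

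The spread between libraries of a group differed among members. In WT crypts the coefficient of variation was 92.7% for Bcl2, 63.7% for Bcl2l11, 45.5% for the low Bik and 40.3% for Bmf, each highest in WT library 3, and 1.67% for Bcl2l1. In WT enteroids of day 3 it was 9.56%, 5.66%, 14.6%, 13% and 2.27% for the same genes.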
